A study of Mus musculus with 18 samples.

Results

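The step from the middle to the apex of the control mouse cochlea was measured by comparing 3 libraries of control apex with 3 libraries of control middle across 17901 genes, which were left of 46583 in the table by a filter on low counts. Both groups came from untreated 4-week-old mice whose genotype the labels give as WT. Cochleae were cut into apex, middle and base, the pieces of 1 region and genotype were pooled, and the RNA of each pool was split into 3 libraries made with a TruSeq v2 kit and Ribo-Zero. The series holds 6 such pools and 18 libraries, the other genotype being a conditional knock-out (cKO) of Fst, whose driver and treatment schedule are not given in the sources used here. Each side of the comparison is therefore n = 1 pool, the 3 libraries are technical, and every p-value below carries the spread between libraries only, not between mice.

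The cochlea is laid out by pitch: the apex answers to low and the base to high frequencies. Inner hair cells pass sound to the spiral ganglion neurons, outer hair cells amplify it by changing length, and the tectorial membrane, an acellular gel, lies over both. Follistatin, the product of Fst, binds activins and some bone morphogenetic proteins outside the cell, and the title of the series ties it to sonic hedgehog and to the identity of the apex.

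The 6 compared libraries held 28621154 to 29030145 counts and 22122 to 22325 genes with at least 1 count. Levels are given in CPM (counts scaled to library size, with TMM factors). A count of 0 allowed a level of up to 0.103 to 0.105 CPM, reckoned from library totals without these factors. Such floors cover counting error only. The targeted gene went with the genotype labels in apex and middle: Fst averaged 9.74 ± 0.384 CPM in cKO apex and 2.98 ± 0.347 in cKO middle, against 23.8 ± 0.861 in control apex and 6.40 ± 0.578 in control middle (SD, n = 3 libraries each). In the base the cKO pool held 1.89 CPM and the control pool 2.22, a log2 difference of -0.22 ± 0.15 that did not pass (edgeR quasi-likelihood, Benjamini-Hochberg adjusted p = 0.307).

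A gene was called when edgeR's quasi-likelihood test gave a Benjamini-Hochberg adjusted p under 0.05 and the levels differed by at least 2-fold. In control apex 376 genes were called higher than in control middle, which is 2.10% of the genes tested, and 575 were called lower, which is 3.21%. Together that is 5.31%, and 9187 genes had an unadjusted p under 0.05. The median log2 fold change over all genes tested was 0.006. Libraries of the groups did not overlap in 27.0% of genes with apex above middle and in 25.8% with apex below middle, so a lack of overlap alone says little here. Many of the called genes were at low levels: with at least 5 CPM in the higher group there were 133 higher and 132 lower calls, and with at least 50 CPM 24 higher and 16 lower. On log2(FPKM + 1), which damps low levels, 30 of the genes named by rule lost their call, and on log2(FPKM + 0.1) 8 did. These 8 were Xirp2, Tyrp1, Neurod1, Oc90, Bdnf, Acvr1c, Gdf5 and Dhrs9, whose values stand beside them below. Lost on log2(FPKM + 1) only were Grxcr1, Strip2, Otol1, Zp1, Th, Fgl2, Penk, Hoxa2, Smpd3, Ibsp and Prg4. Cebpe, Gp6, Igll1, Dntt, Cd79a, Rag2, Reg3g, Sfrp2, Col22a1, Col6a1 and Ccnb1 were likewise lost there only. Protein-coding genes made up 296 of the higher and 519 of the lower calls.

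**Figure D1:**
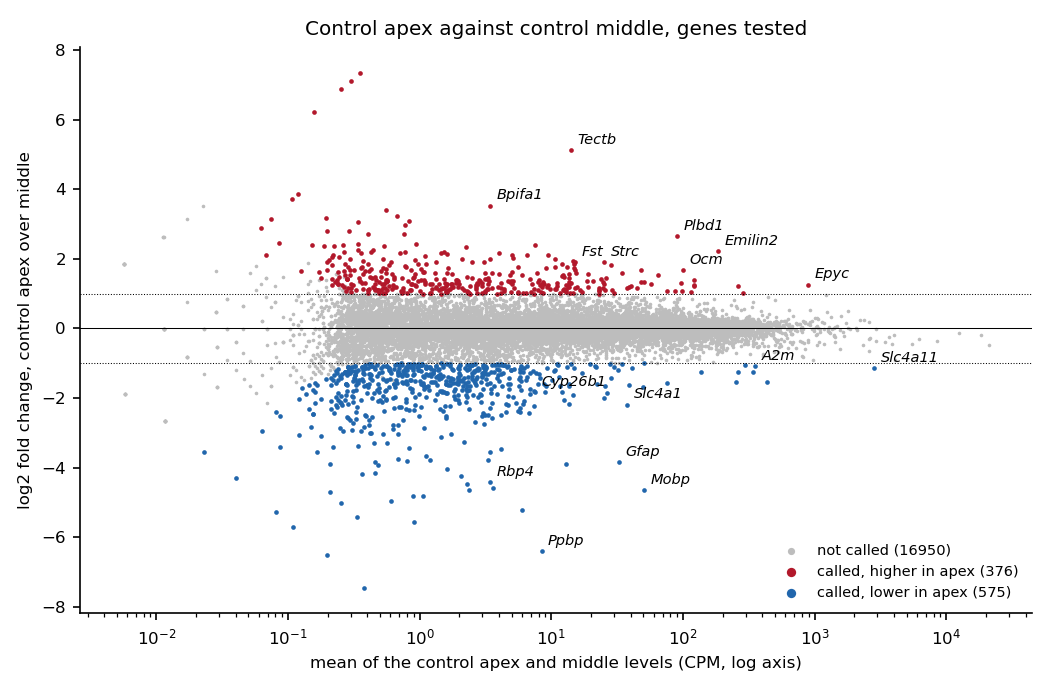
Log2 fold change of control apex over control middle (vertical axis) against the mean level of both groups in CPM (horizontal log axis) for all genes tested; dotted lines mark the 2-fold threshold. Red points are the 376 genes called higher and blue points the 575 called lower in apex; Tectb stands above the other genes of its level and Ppbp, Mobp and Gfap stand below theirs.

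Among genes of at least 5 CPM the apex side of the step was led by Tectb (ENSMUSG00000024979), which codes for beta-tectorin, a protein of the tectorial membrane. The gene lies on the plus strand of chromosome 19, at 55180733 to 55196313 (GRCm38/mm10). Tectb had 26.7, 27.9 and 27.5 CPM in the control apex libraries, against 0.974, 0.727 and 0.624 CPM in those of control middle. All apex libraries lay far above all middle libraries, with a log2 fold change of 5.13 ± 0.17 (standard error of the fit, edgeR quasi-likelihood, adjusted p = 1.57e-39). Control base held 0.146 CPM, near the floor.

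Plbd1 (ENSMUSG00000030214, chromosome 6, 136612070 to 136661928, minus strand), a member of the phospholipase B-like family of lysosomal proteins, had 157, 155 and 155 CPM in control apex. In control middle it had 24.2, 25.0 and 25.3 CPM. The groups were well apart, with a log2 fold change of 2.65 ± 0.03 (edgeR quasi-likelihood, adjusted p = 5.27e-51). Emilin2, a glycoprotein of the extracellular matrix (chromosome 17, 71252172 to 71311978, minus strand), had 309, 308 and 299.9 CPM in control apex against 69.2, 64.2 and 64.5 CPM in control middle. Its lowest apex library was above its highest middle library, and its log2 fold change was 2.21 ± 0.02 (adjusted p = 4.78e-54 in the same test). Control base held 15.3 CPM of Plbd1 and 49.5 CPM of Emilin2, less than control middle.

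Among the 15 genes with the largest rise and at least 5 CPM in control apex, 12 others joined these 3. Fst itself was one of them: it had 22.9, 24.5 and 24.1 CPM in control apex against 6.85, 6.61 and 5.75 CPM in control middle, a log2 fold change of 1.90 ± 0.07 (edgeR quasi-likelihood, adjusted p = 5.61e-29). Its apex libraries all lay above its middle libraries. Ppp1r17, an inhibitor subunit of protein phosphatase 1 and 2A, rose by 2.40 ± 0.11 on the log2 scale, and Tnfaip6, a hyaluronan-binding secreted protein, by 2.18 ± 0.15. Bhmt2, a methyltransferase of homocysteine, rose by 2.11 ± 0.14, Hgd, a dioxygenase of tyrosine breakdown, by 2.01 ± 0.13, and Epha3, a receptor of ephrins, by 1.93 ± 0.08. Adgrd1, an adhesion G protein-coupled receptor, rose by 1.996 ± 0.09. The rest of the 15 are described below with their groups: Strc and Chrna9 of hair cells, Notumos beside Notum, and Bpifa1 and Bpifb3 of mucosal secretion. Pcp4, a small modulator of calmodulin, was among the 6 most raised genes of at least 50 CPM: it had 51.1, 52.6 and 50.1 CPM in control apex against 17.1, 15.6 and 18.3 CPM in control middle. Its log2 fold change was 1.59 ± 0.05, and no apex library overlapped a middle library.

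**Figure D2:**
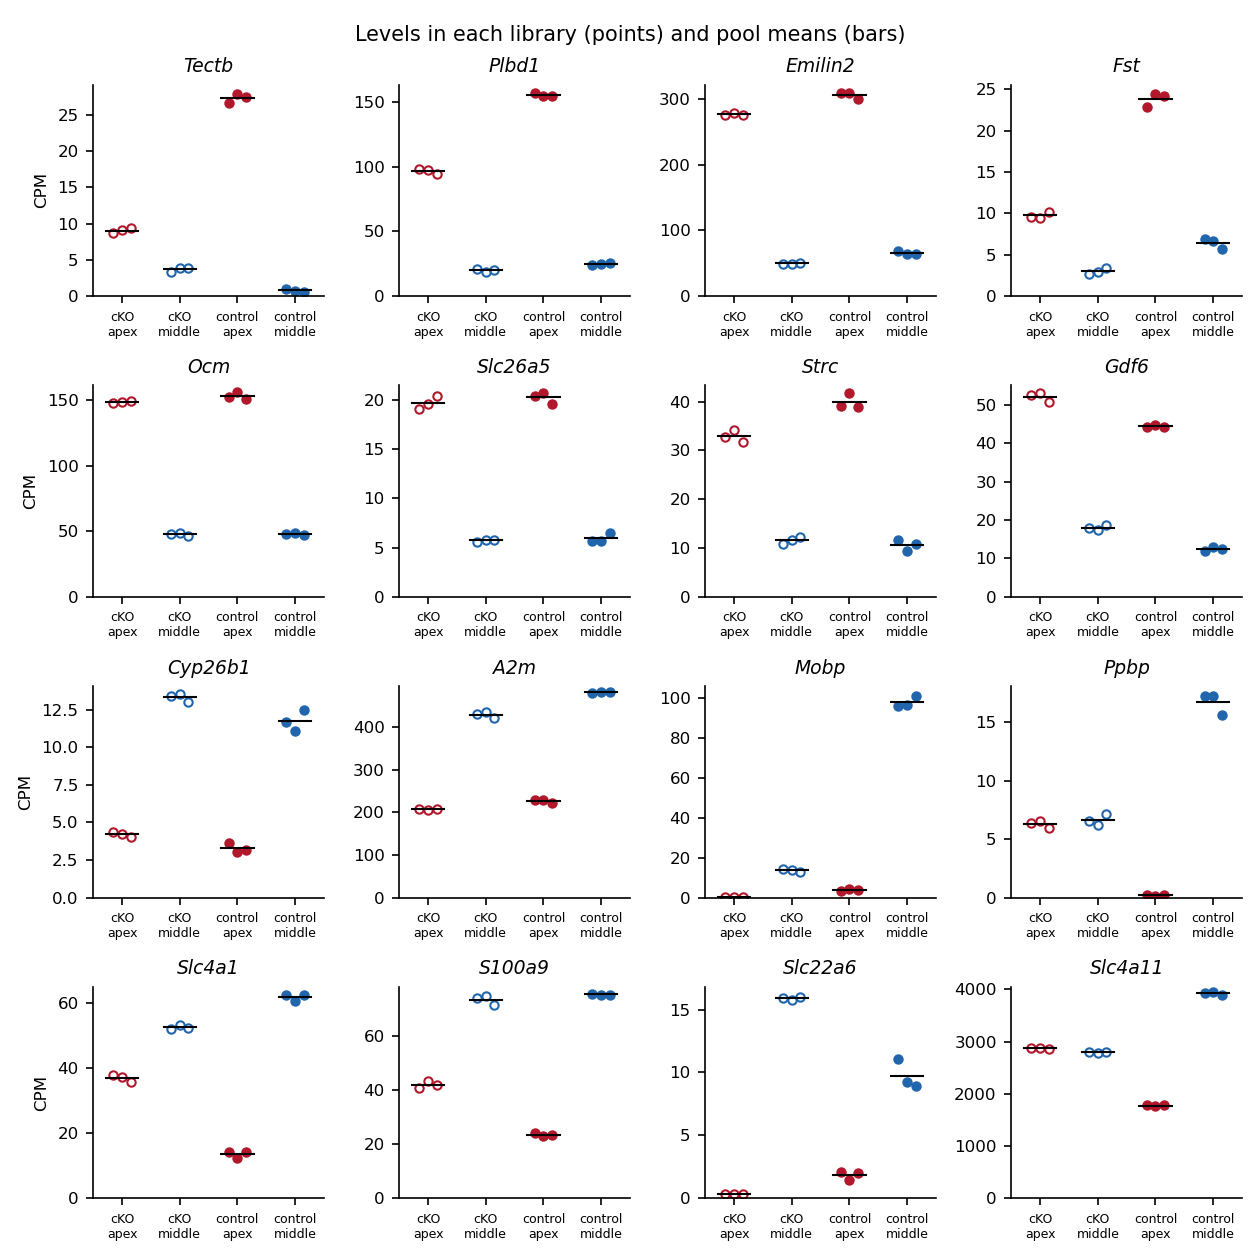
Level in CPM (vertical axes, from 0) of 16 genes in each library (points) of apex (red) and middle (blue) pools, open for cKO and filled for control, with the mean of the 3 libraries as a bar. Tectb to Gdf6 are higher and Cyp26b1 to Slc4a11 lower in control apex; for Tectb, Ppbp, Slc4a1 and Slc4a11 the cKO pools lie closer to each other than the control pools do.

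Stretches just before the starts of 3 genes are shown because they stand for the sides of the step: Tectb as the largest rise at or above 5 CPM, Plbd1 as a rise also called in the summed pools described below, and Cyp26b1 as a fall also called there. Each runs 5′ to 3′ along its gene's strand and ends at the base before the RefSeq start (GRCm38.p6). By the GENCODE gene positions given with each gene, which differ from the RefSeq starts, 35 bases of the Plbd1 window and 98 bases of the Cyp26b1 window, with its E-box, lie inside the gene. The table of starts held all 3 genes that were looked up. Capitals mark a TATAAA box or an E-box (CAGNTG), searched on both strands together with GACCACCCA, the core that GLI factors of the hedgehog pathway bind.
Tectb, chr19:55180476-55180725, plus strand: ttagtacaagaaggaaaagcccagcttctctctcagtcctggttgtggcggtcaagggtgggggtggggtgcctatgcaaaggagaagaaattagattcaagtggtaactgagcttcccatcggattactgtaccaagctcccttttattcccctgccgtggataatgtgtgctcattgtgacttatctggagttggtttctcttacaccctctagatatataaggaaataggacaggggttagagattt
Plbd1, chr6:136661894-136662143, minus strand: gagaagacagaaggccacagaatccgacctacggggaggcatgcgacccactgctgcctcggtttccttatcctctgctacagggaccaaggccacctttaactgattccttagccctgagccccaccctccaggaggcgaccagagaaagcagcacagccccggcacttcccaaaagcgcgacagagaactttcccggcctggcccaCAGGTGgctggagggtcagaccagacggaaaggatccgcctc
Cyp26b1, chr6:84593811-84594060, minus strand: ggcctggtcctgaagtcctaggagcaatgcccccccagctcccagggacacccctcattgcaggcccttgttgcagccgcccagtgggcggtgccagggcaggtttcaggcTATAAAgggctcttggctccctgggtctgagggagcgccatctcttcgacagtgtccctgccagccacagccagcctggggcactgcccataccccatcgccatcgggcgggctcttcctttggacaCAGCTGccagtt
The window of 250 bases before Tectb held no exact match to any of the 3 strings of letters. That of Plbd1 held 1 CAGNTG and that of Cyp26b1 held 1 CAGNTG and 1 TATAAA. Looser forms of the TATA box and of the E-box were not searched, so a window without a match may still hold one. Of 32841 windows of this length in the RefSeq table, 44.8% held CAGNTG, 12.4% held TATAAA and 0.225% held GACCACCCA. The share of G and C was 46% before Tectb, 60.8% before Plbd1 and 64.8% before Cyp26b1. A match of letters is a description and does not show a binding site.

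Hair cell genes were higher in control apex. Of 29 members of the hair cell list tested, 19 were called higher and none lower, beside 2.10% and 3.21% of all genes, and the list's median log2 fold change was 1.20 against 0.006 over all genes. Strc, which codes for stereocilin of the stereocilia top connectors, had 39.2, 41.7 and 38.9 CPM in control apex and 11.7, 9.45 and 10.9 CPM in control middle. Every apex library lay above every middle library, with a log2 fold change of 1.90 ± 0.06 (edgeR quasi-likelihood, adjusted p = 1.16e-32). Chrna9, a subunit of the efferent acetylcholine receptor, rose by 2.01 ± 0.16, Grxcr1, needed for stereocilia thickness, by 2.16 ± 0.35, and Xirp2, an actin-binding protein of stereocilia, by 2.07 ± 0.26. Xirp2 was not called on FPKM, with a log2 difference of 0.15 at a pseudocount of 1 and 0.88 at 0.1, nor was Grxcr1 at a pseudocount of 1, with 0.84. The 10 members that were not called ran from -1.24 in Tmc2 to 0.99 in Espn. Summed over the list, the levels ran from 1316 to 1329 CPM in control apex and from 917 to 919.6 CPM in control middle.

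Outer hair cell genes split. Of 9 tested members 4 were called higher and none lower, beside 2.10% and 3.21% of all genes, with a median of 0.44. Ocm, oncomodulin, a calcium buffer of outer hair cells, had 152, 156 and 151 CPM in control apex against 47.7, 48.7 and 47.5 CPM in control middle, a log2 fold change of 1.67 ± 0.03 (edgeR quasi-likelihood, adjusted p = 6.95e-46). Slc26a5, prestin, the motor of outer hair cells, had 20.4, 20.8 and 19.7 CPM in control apex against 5.70, 5.71 and 6.51 CPM in control middle, a log2 fold change of 1.76 ± 0.07. For both genes the groups were clearly apart. Chrna10, the partner of Chrna9, rose by 1.75 ± 0.07 and Strip2 by 1.16 ± 0.05, whereas the 5 members that were not called had log2 fold changes between 0.15 and 0.44. Inner hair cell and ribbon synapse genes gave 4 of 9 higher and none lower, with a median of 0.67. They were Slc17a8, the glutamate transporter of inner hair cell vesicles, at 1.37 ± 0.06, Cabp2, a calcium sensor, at 1.31 ± 0.07, Otof, otoferlin, at 1.29 ± 0.03, and Ush1c, harmonin, at 1.16 ± 0.04. Chrna10, Otof and Ush1c are also on the hair cell list, so these lists do not count separate genes. In bulk RNA a smaller share of cells of a type and less RNA per cell cannot be told apart, which holds for every list here.

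Supporting cell and gel protein genes rose in part, beside 2.10% of all genes called higher and 3.21% called lower. Of 23 supporting cell genes 4 were called higher and none lower, with a median of 0.48: Emilin2, Otogl, Otog and Epyc. Epyc, epiphycan, a small proteoglycan, had 1261, 1266 and 1263 CPM in control apex and 524, 528 and 531 CPM in control middle, a log2 fold change of 1.26 ± 0.01 (edgeR quasi-likelihood, adjusted p = 2.14e-58). Control base held 344 CPM. Of 11 genes of the tectorial membrane and related gels 5 were called higher and none lower, namely Tectb, Otol1, Zp1, Otogl and Otog, of which Otogl and Otog are also on the supporting cell list. Otogl, otogelin-like, had 75.2, 70.5 and 73.4 CPM in control apex and 22.5, 22.4 and 23.1 CPM in control middle, with no overlap and a log2 fold change of 1.69 ± 0.04. Tecta, alpha-tectorin, and Coch, cochlin, which were picked out after their values were seen, had log2 fold changes of 0.77 and -0.19, and neither was called.

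Of 8 tested genes of the vestibular organs and otoliths 4 were higher and none lower, beside 2.10% and 3.21% of all genes. They were Tectb, Otol1, otolin of otoconia, Oc90, the main otoconial protein, and Bdnf, a neurotrophin. Tectb and Otol1 are also on the list of the tectorial membrane and related gels, so the lists do not count separate genes. The summed level of the vestibular list was 94.2 to 96.4 CPM in control apex and 47.2 to 48.8 CPM in control middle. Tectb alone made up most of that difference. Otol1 rose by 2.14 ± 0.23, Oc90 by 1.27 ± 0.36 and Bdnf by 1.12 ± 0.14 on the log2 scale. On FPKM neither Oc90, with 0.31 at a pseudocount of 1 and 0.92 at 0.1, nor Bdnf, with 0.50 and 0.9985, was called, and at a pseudocount of 1 neither was Otol1, with 0.84. Their part in the hair cell and gel protein results was not tested.

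Most genes of the lateral wall, nerve and Schwann cells lay within 2-fold. Of all genes tested 2.10% were called higher and 3.21% lower, so a single call in a list below says little of that list. No gene of 14 on the marginal cell list of the stria vascularis was called, with a median of -0.47, and 1 of 13 on the melanocyte list, Tyrp1, an enzyme of melanin synthesis, rose by 1.32 ± 0.41 at under 1 CPM and was not called on FPKM, with 0.16 at a pseudocount of 1 and 0.65 at 0.1. Of 12 genes of spiral ligament fibrocytes, 2 transporters of the Slc4 family were lower. Slc4a11 had 1783, 1761 and 1783 CPM in control apex against 3926, 3941 and 3900.0 CPM in control middle, a log2 fold change of -1.14 ± 0.0063 (edgeR quasi-likelihood, adjusted p = 2.32e-64). Slc4a10 had 226, 226 and 224 CPM in control apex against 648, 654 and 641 CPM in control middle, a log2 fold change of -1.52 ± 0.01. In neither did libraries of the groups overlap, and the median of the list was -0.30. In the cKO none of the 12 was called, with a median of -0.08. Of 28 spiral ganglion neuron genes 1 was called, Th, tyrosine hydroxylase, with 6.54, 5.53 and 5.76 CPM in control apex against 2.78, 2.77 and 2.94 CPM in control middle. Its log2 fold change was 1.07 ± 0.13, and without control apex replicate 1 it dropped to 0.99 and was no longer called. Fgl2 was the 1 gene called among 18 of Schwann cells and peripheral myelin, with a log2 fold change of -1.85 ± 0.14.

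**Figure D3:**
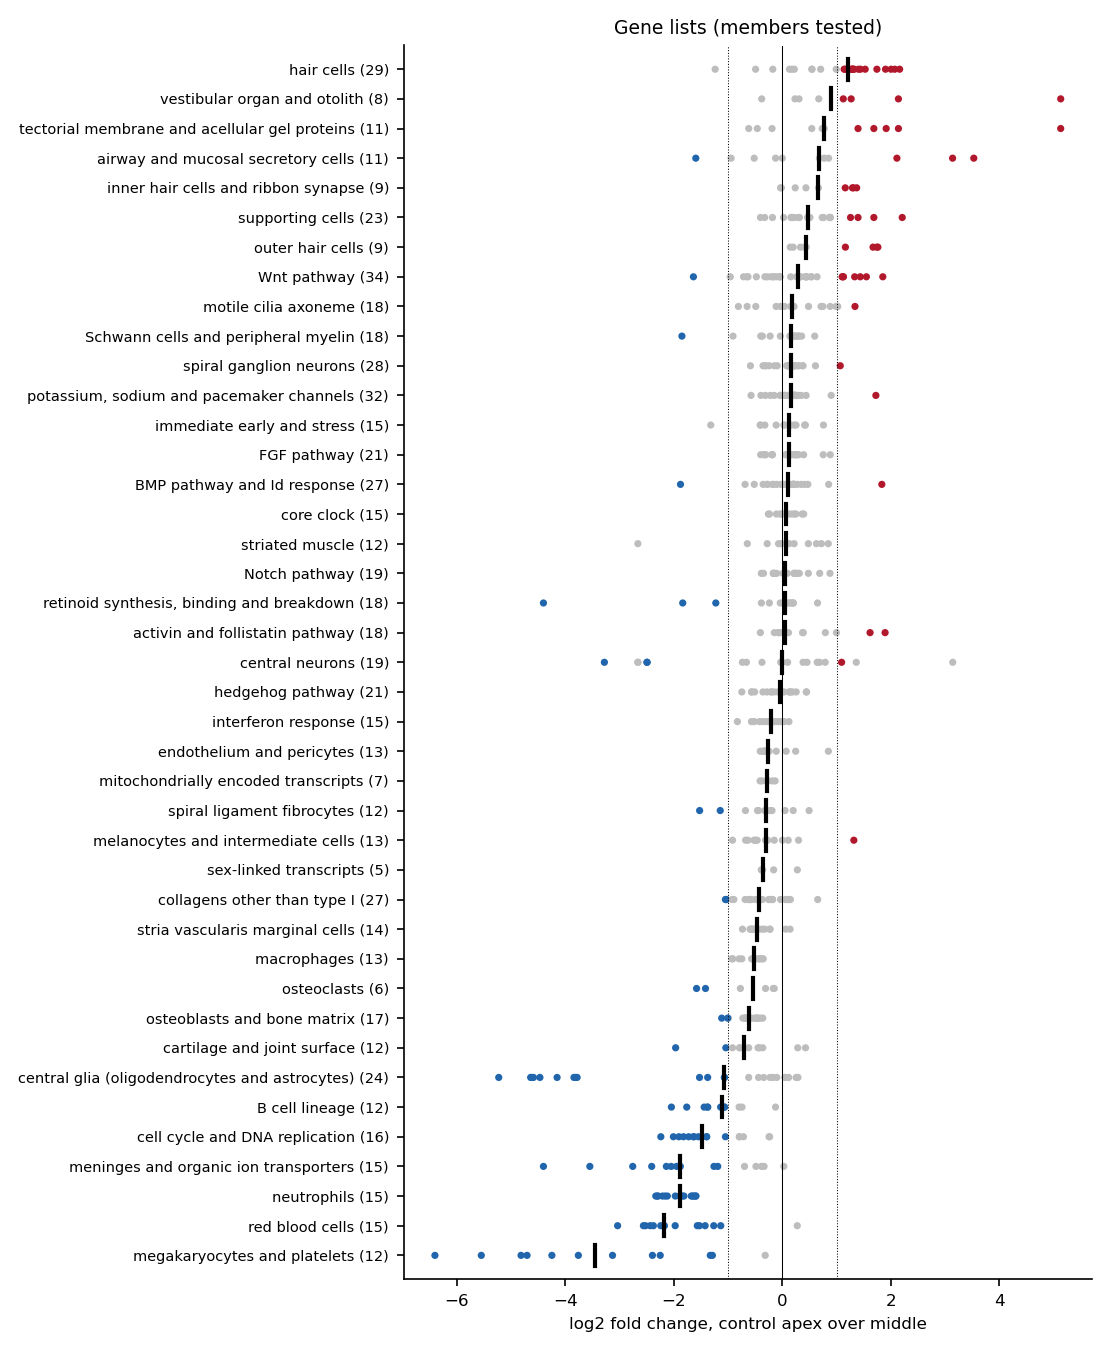
Log2 fold change of control apex over control middle (horizontal axis) for each tested member (points) of the lists with at least 5 tested members, sorted by their median (black bar); red and blue points were called higher and lower in apex, grey points were not called, and the number of tested members stands in parentheses. Hair cell, vestibular and tectorial membrane lists lie at the top and red cell, neutrophil, megakaryocyte, meningeal and cell cycle lists at the bottom.

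On the middle side, genes of blood and marrow cells were lower in control apex. All 15 neutrophil genes, 14 of 15 red cell genes, 11 of 12 megakaryocyte and platelet genes and 9 of 12 B cell genes were called lower, beside 3.21% of all genes, and none of the 4 lists held a higher gene. Their median log2 fold changes were -1.89, -2.17, -3.45 and -1.12, in the same order. Summed over each list, control base lay between control apex and control middle. For neutrophils it held 118 to 123 CPM, against 95.4 to 97.3 in apex and 324 to 327 in middle. For megakaryocytes it held 34.6 to 36.9 CPM, against 20.1 to 21.6 in apex and 60.7 to 65.3 in middle. For B cells it held 143.6 to 150.3 CPM, against 123.6 to 128.2 in apex and 151.7 to 153.5 in middle. Of 13 macrophage genes none was called, and their median was -0.52. Ppbp (ENSMUSG00000029372, chromosome 5, 90768518 to 90770063), the chemokine of platelet granules, was the largest fall at or above 5 CPM, with 0.238, 0.102 and 0.237 CPM in control apex against 17.2, 17.2 and 15.6 CPM in control middle. Its log2 fold change was -6.41 ± 0.34 (edgeR quasi-likelihood, adjusted p = 1.25e-36), and its apex libraries were near their floor. Gp9, a platelet receptor subunit, had 3 counts over the control apex libraries and 155 over those of control middle, a ratio of middle over apex of 51.2 (exact 95% interval 17.2 to 251, which covers counting error only). Gp6, the platelet collagen receptor, had 1 count in control apex and 35 in control middle, a ratio of 34.7 (5.83 to 1409, likewise).

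Slc4a1, band 3 of the red cell membrane, had 14.3, 12.3 and 14.1 CPM in control apex against 62.3, 60.6 and 62.5 CPM in control middle, a log2 fold change of -2.19 ± 0.05. S100a9, a calcium-binding protein of neutrophils, had 24.2, 23.0 and 23.3 CPM in control apex and 75.4, 75.1 and 75.0 CPM in control middle, a log2 fold change of -1.68 ± 0.04. In both genes the apex libraries were all lower. Klf1 and Gata1, transcription factors of the red cell lineage, were lower, with log2 fold changes of -2.52 ± 0.19 and -3.04 ± 0.28, as was Ngp, a granule protein of neutrophils, at -1.63 ± 0.04. Trim10, Kel and Epb4.2, all of the red cell lineage, were among the 15 largest falls at or above 5 CPM, at -2.48, -2.48 and -2.56. Globin values such as the -1.57 ± 0.03 of Hba-a2 are uncertain, because near-identical copies share reads.

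Cell division genes moved the same way. Of 16 cell cycle and DNA replication genes 11 were lower, beside 3.21% of all genes, and none higher, with a median of -1.47. In the cKO none of the 16 was called, with a median of -0.29. Mki67, the proliferation antigen, had 9.20, 10.7 and 10.3 CPM in control apex and 39.5, 39.3 and 42.6 CPM in control middle, a log2 fold change of -2.01 ± 0.06 (edgeR quasi-likelihood, adjusted p = 1.06e-35). Aurkb, a mitotic kinase, had a log2 fold change of -2.24 ± 0.23 and Top2a, a topoisomerase of dividing cells, one of -1.82 ± 0.09. The summed level of the list was 87.7 to 89.6 CPM in control apex against 174.5 to 182 CPM in control middle, and that of the red cell list 387 to 394 CPM against 1074 to 1080 CPM. Control base held 108.8 to 113 CPM of the cell cycle list and 577 to 579 CPM of the red cell list. Both base levels were nearer to those of control apex than to those of control middle. Of bone genes, 2 of 17 for osteoblasts, Smpd3 and Ibsp, and 2 of 6 for osteoclasts, Mmp9 and Acp5, were lower, beside 3.21% of all genes. Ibsp stood at the threshold with -1.01 ± 0.05 and was no longer called, at -0.999 to -0.967, without control middle replicate 2, without control middle replicate 3, without control apex replicate 1 and without control apex replicate 3.

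**Figure D4:**
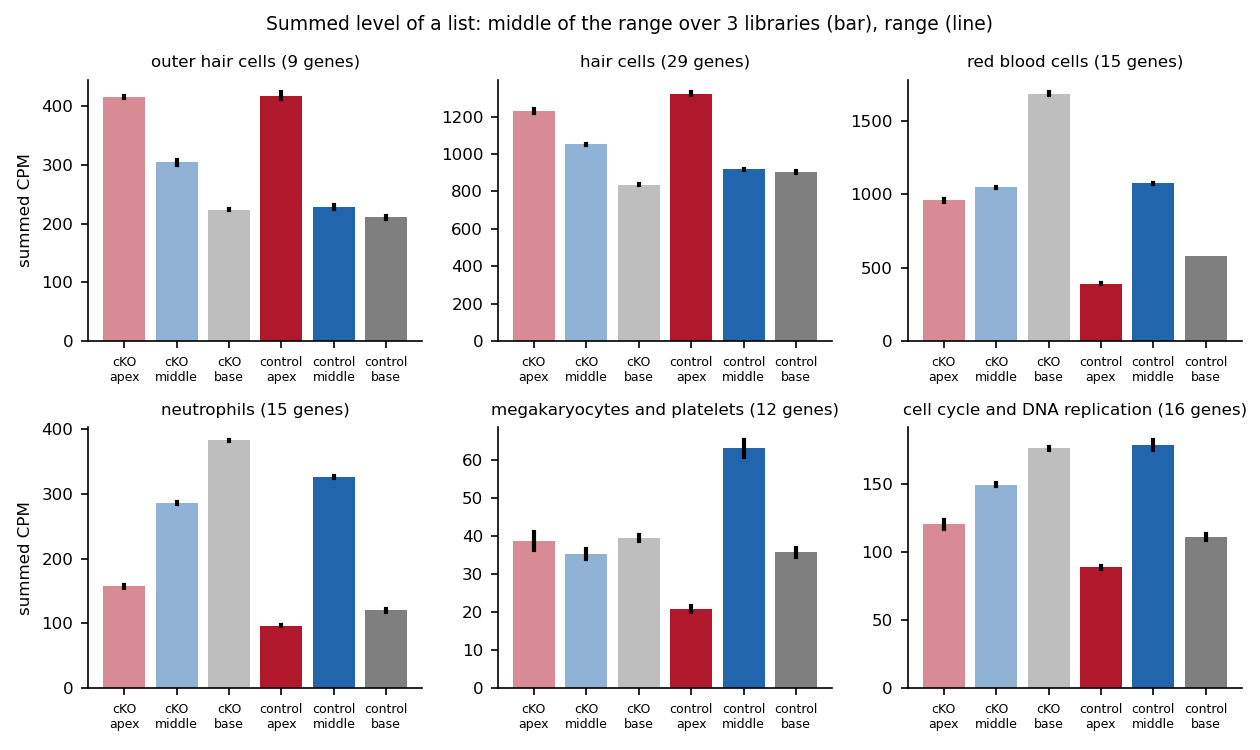
Summed level in CPM (vertical axes, from 0) of 6 lists in apex, middle and base of cKO and of control; bars stand at the middle of the range over the 3 libraries of a pool and lines span that range. Outer hair cell and hair cell lists are highest in the apex of both genotypes; red cell and megakaryocyte lists are lowest in control apex, and those 2 lists differ far less between cKO apex and cKO middle.

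Genes of central glia and of the brain's coverings were also lower in control apex. Of all genes tested 3.21% were called lower and 2.10% higher. Of 24 genes of central glia, the oligodendrocytes and astrocytes whose territory reaches into the proximal auditory nerve, 13 were lower and none higher, with a median of -1.07. Mobp (chromosome 9, 120149707 to 120181484), a protein of central myelin, had 3.44, 4.41 and 3.90 CPM in control apex against 95.8, 96.4 and 101 CPM in control middle. That is a log2 fold change of -4.64 ± 0.08 (edgeR quasi-likelihood, adjusted p = 5.27e-51). Gfap, the filament of astrocytes, had 3.88, 4.82 and 4.00 CPM in control apex and 63.8, 58.8 and 59.7 CPM in control middle, a log2 fold change of -3.84 ± 0.08. Neither gene overlapped between the groups, and control base held 21.9 CPM of Mobp and 24.5 CPM of Gfap, between apex and middle. Mog, of the surface of central myelin, had a log2 fold change of -5.23. Olig1, a transcription factor of oligodendrocytes, Ermn, of their cytoskeleton, Hapln2, of the matrix at nodes of Ranvier, and Mlc1, of astrocyte membranes, had ones of -4.63, -4.59, -3.78 and -3.47, in this order. Central neuron genes did not move as a list: the median of the 19 tested was 0, and 9 had log2 fold changes above 0. Of these 19 genes 3 were called lower, Penk, Hoxa2 and Zic1. On FPKM at a pseudocount of 1 neither Penk, with -0.85, nor Hoxa2, with -0.39, was called. Neurod1 was called higher by 1.09 ± 0.30 at under 1 CPM. It dropped to 0.88 and no call without control middle replicate 3. On FPKM it dropped to 0.19 at a pseudocount of 1 and 0.76 at 0.1. Hoxa2 was also the single gene tested of 14 anterior Hox genes. It had 0.068 to 0.136 CPM in control apex, near the floor, and 0.381 to 0.974 CPM in control middle.

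Of 15 genes of the meninges and of organic ion transport, 10 were lower, beside 3.21% of all genes, and none higher, with a median of -1.88. Rbp4, the retinol carrier, had 0.375, 0.204 and 0.339 CPM in control apex against 6.29, 6.23 and 7.17 CPM in control middle, a log2 fold change of -4.41 ± 0.28. Slc22a6, an organic anion transporter, had 2.08, 1.43 and 2.0 CPM in control apex against 11.1, 9.27 and 8.90 CPM in control middle, a log2 fold change of -2.41 ± 0.13. Slc47a1, an exporter of organic cations, and Slc6a12, a betaine carrier, were lower by log2 fold changes of -3.55 ± 0.21 and -2.76 ± 0.19. Control base held more of all 4 than control middle, with 32.2, 16.2, 20.4 and 11.1 CPM in the order Rbp4, Slc22a6, Slc47a1 and Slc6a12. The part of the blood, marrow, glial and meningeal genes in the rest of the step was not tested, and tissue composition and expression within cells cannot be told apart in these pools.

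Signalling pathways changed at few members. In the activin and follistatin list 2 of 18 genes were higher and none lower, beside 2.10% and 3.21% of all genes: Fst and Acvr1c, a type I receptor, which rose by 1.62 ± 0.26 at 1.43, 1.70 and 1.80 CPM in control apex against 0.800, 0.381 and 0.416 CPM in control middle. Acvr1c was no longer called on FPKM, with a log2 difference of 0.088 at a pseudocount of 1 and 0.45 at 0.1. Inhba, the activin A subunit, had 3.13, 3.15 and 3.36 CPM in control apex and 1.67, 1.49 and 1.66 CPM in control middle. Its log2 fold change of 0.999 ± 0.16 was just under the threshold, and it was called without control middle replicate 1, without control middle replicate 3, without control apex replicate 1 or without control apex replicate 2. Inhbb, the activin B subunit, had a log2 fold change of 0.79 and Fstl3, a paralogue of Fst, one of -0.40. Neither was called.

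In the bone morphogenetic protein list 1 of 27 genes was higher and 1 lower, which is about the share of all genes (2.10% and 3.21%), so the count says nothing of the list. Gdf6 (chromosome 4, 9844372 to 9862345), a ligand of this family, had 44.1, 44.9 and 44.3 CPM in control apex against 11.9, 13.0 and 12.5 CPM in control middle, a log2 fold change of 1.84 ± 0.05 (edgeR quasi-likelihood, adjusted p = 1.31e-35). The groups were far apart, and control base held 12.2 CPM, so the level was similar in middle and base. Gdf5, a relative of Gdf6, fell by 1.88 ± 0.80 on the log2 scale at under 1 CPM, and was no longer called, at -1.64 to -1.54, without control middle replicate 1, without control apex replicate 1 or without control apex replicate 3, nor on FPKM, with -0.10 at a pseudocount of 1 and -0.67 at 0.1. Id4, a target of the pathway, had a log2 fold change of 0.86 and its inhibitor Smad6 one of 0.41, and neither was called.

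No gene of 21 in the hedgehog list was called, and their median log2 fold change was -0.04. Shh, the ligand, had 2.96, 3.26 and 2.58 CPM in control apex and 3.13, 2.98 and 2.94 CPM in control middle, with overlapping libraries. Ptch1, its receptor and a common readout of the pathway, had 70.8, 67.3 and 65.5 CPM in control apex against 65.6, 68.1 and 70.1 CPM in control middle, which also overlapped. Their log2 fold changes were -0.04 ± 0.13 and -0.002 ± 0.03. Gli1, a target of the pathway, had a log2 fold change of -0.36 ± 0.10, Hhip, an inhibitor, one of -0.75 ± 0.07, and the co-receptors Gas1 and Cdon ones of 0.45 ± 0.03 and 0.44 ± 0.02. These 4 had adjusted p-values under 0.05 in edgeR's quasi-likelihood test and did not reach 2-fold.

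Of 18 retinoid genes 3 were called lower and none higher, beside 3.21% and 2.10% of all genes. The list's median log2 fold change was 0.04, and 12 of its genes had log2 fold changes above 0. Cyp26b1 (chromosome 6, 84571414 to 84593908, minus strand), an enzyme that breaks down retinoic acid, had 3.65, 3.05 and 3.15 CPM in control apex against 11.7, 11.1 and 12.5 CPM in control middle. Its apex libraries were all lower, with a log2 fold change of -1.84 ± 0.09 (edgeR quasi-likelihood, adjusted p = 3.64e-24), and control base held 9.37 CPM. Rbp4 was described above, and Dhrs9, a retinol dehydrogenase, fell by 1.23 ± 0.50 on the log2 scale at under 1 CPM. Dhrs9 was called neither by DESeq2 nor without control middle replicate 2 or 3 or control apex replicate 1 or 2, at -1.25 to -1.06, nor on FPKM, with -0.062 at a pseudocount of 1 and -0.42 at 0.1. Aldh1a2, which makes retinoic acid, had a log2 fold change of -0.38 and Crabp2, which carries it in the cell, one of 0.65, and neither was called.

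In the Wnt list 7 of 34 genes were higher and 1 lower, beside 2.10% and 3.21% of all genes, with a median of 0.28. The higher genes were Sfrp1, Sfrp2, Dkk2, Wif1, Notum, the ligand Wnt7a and the receptor Fzd10. On log2(FPKM + 1) Sfrp2 dropped to 0.57 and was no longer called. In the cKO the Wnt list gave 2 higher and 3 lower, beside 1.66% and 2.92% of all genes, with a median of 0.22. Sfrp1, a secreted Wnt inhibitor, had 94.2, 96.2 and 96.5 CPM in control apex against 32.2, 33.1 and 32.6 CPM in control middle, a log2 fold change of 1.55 ± 0.03. Notum, an enzyme that strips the lipid from Wnt ligands, rose by 1.44 ± 0.05, and Notumos, its opposite-strand transcript, by 2.11 ± 0.09. Use of strand in the counting is not given in the sources used here, so reads of Notum and Notumos cannot be told apart where they overlap. Sfrp4, a relative of Sfrp1, went the other way, with 12.6, 12.8 and 11.9 CPM in control apex against 38.7, 39.8 and 37.5 CPM in control middle and a log2 fold change of -1.64 ± 0.05. Its control base level was 128 CPM. No gene was called of 19 in the Notch list or of 21 in the FGF list, with medians of 0.06 and 0.12. Of 32 potassium, sodium and pacemaker channels 1 was higher, near the 2.10% of all genes: Kcna10, a voltage-gated potassium channel, rose by 1.73 ± 0.09.

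Of genes of the matrix, 3 of 27 collagens other than type I were lower, beside 3.21% of all genes. They were Col22a1, Col2a1 and Col6a1, at -1.05 ± 0.13, -1.04 ± 0.01 and -1.03 ± 0.06. Col6a1 dropped to -0.95 and no call without control middle replicate 2, and Col22a1 to -0.86 without control middle replicate 3 and -0.96 without control apex replicate 3. Of 12 cartilage genes 2 were lower, beside the same share of all genes: Prg4, the lubricant of joints, at -1.97 ± 0.17, and Col2a1. Col2a1 had 774 CPM in control base against 196, 194 and 192 CPM in control apex and 401, 400.2 and 395 CPM in control middle.

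Pools of the cKO share no library with the control pools and give the step again with Fst lowered. There 297 genes were called higher in apex, which is 1.66% of those tested, and 522 lower, which is 2.92%, together 4.58%. Of the 376 genes higher in control apex, 132 were also higher in cKO apex, which is 35.1% of the control calls and 44.4% of the cKO calls, and 19 were lower. Of the 575 lower genes, 161 were also lower in the cKO, which is 28% of the control calls and 30.8% of the cKO calls, and 4 were higher. The sign was the same for 324 of the 376 and for 521 of the 575. The step itself differed between genotypes in 3.54% of all genes tested, and in 80 of the 376 and 221 of the 575. Median log2 fold changes of the genes higher in control apex were 0.77 in the cKO and 1.34 in the control. For the genes lower in control apex they were -0.65 in the cKO and -1.53 in the control. As these genes were taken for their control values, smaller values in the other pools are a description and no test.

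Steps of single genes were alike or far apart between the genotypes. The log2 fold change of Ocm was 1.64 in the cKO and 1.67 in the control, and that of Slc26a5 1.78 in the cKO and 1.76 in the control. For Emilin2 it was 2.48 in the cKO and 2.21 in the control, for Plbd1 2.27 in the cKO and 2.65 in the control, and for Fst 1.71 in the cKO and 1.90 in the control. Gdf6 had 1.53 in the cKO and 1.84 in the control, and Cyp26b1 had -1.66 in the cKO and -1.84 in the control. Tectb stood apart: it had 9.04 ± 0.349 CPM in cKO apex and 3.73 ± 0.306 CPM in cKO middle, so its log2 fold change was 1.27 in the cKO against 5.13 in the control. Pcp4 was turned round, with 40.7 ± 1.30 CPM in cKO apex against 100.4 ± 3.04 CPM in cKO middle. The cKO counts of list members that follow stand beside 1.66% of all genes called higher and 2.92% called lower in cKO apex. Of the blood lists, no red cell and no megakaryocyte gene and 3 neutrophil genes were lower in cKO apex than in cKO middle. Their cKO medians were -0.41 for red cells, -0.04 for megakaryocytes and -0.83 for neutrophils. Of the B cell list 1 gene was lower in cKO apex, with a cKO median of -0.69. Glial and meningeal genes were lower again, with 9 of 24 and 11 of 15 called and cKO medians of -0.32 and -2.47. The hair cell list gave 5 higher and 4 lower in the cKO, where its median was 0.52. The list of the tectorial membrane and related gels gave 3 higher and 2 lower there, with a cKO median of 0.06. The vestibular list, which shares genes with it, gave 2 higher and 2 lower, with a cKO median of 0.20.

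**Figure D5:**
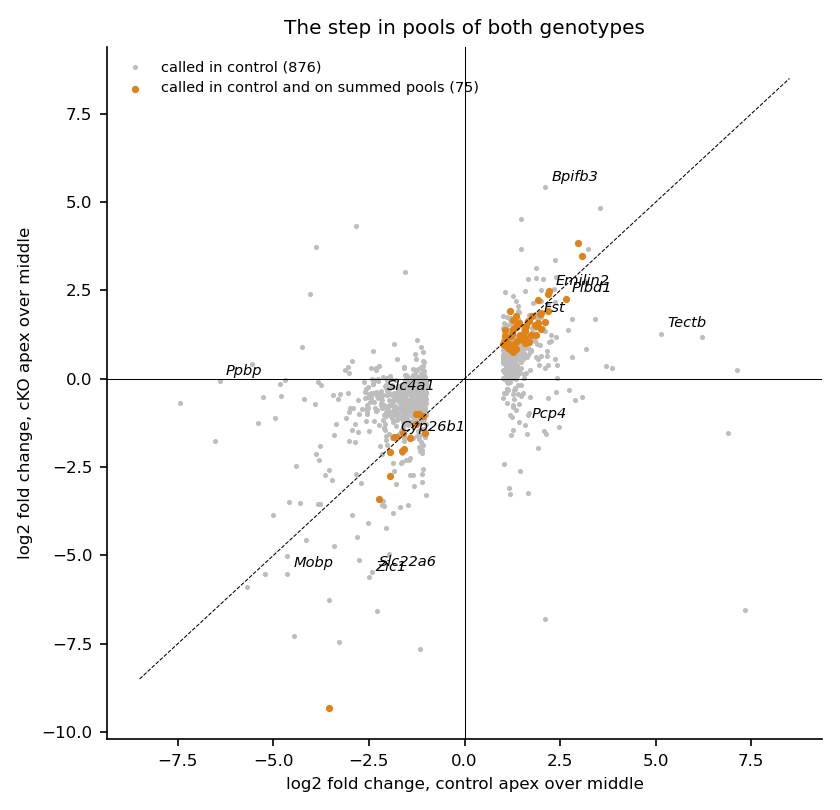
Log2 fold change of apex over middle in cKO pools (vertical axis) against that in control pools (horizontal axis) for the 951 genes called in the control; orange points were also called when the libraries of each pool were summed, and the dashed line marks equal values. Plbd1, Emilin2, Fst, Mobp and Cyp26b1 lie near the line, whereas Tectb, Pcp4, Ppbp and Slc4a1 lie far from it.

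With the libraries of each pool summed and the 6 pools fitted with region and genotype as factors, the apex and middle of both genotypes were compared with the pool as unit. That test has 2 residual degrees of freedom, and whether the 3 regions of a genotype were taken from 1 set of mice is not given. It called 77 genes, 0.430% of those tested, with 62 higher in apex (0.346%) and 15 lower (0.0838%), and 3370 had an unadjusted p under 0.05. Of these, 60 of the higher and all 15 lower genes were also called in the control libraries, which the test contains. Of the genes described above it kept Plbd1 (adjusted p = 0.0276), Emilin2 (0.0278), Gdf6 (0.0227), Ocm (0.00889), Slc26a5 (0.0227), Strc (0.0278), Chrna9, Chrna10, Otogl, Epyc, Notum, Notumos, Epha3, Hgd and Tnfaip6 on the higher side, all by edgeR's quasi-likelihood test with Benjamini-Hochberg adjustment. On the lower side it kept Cyp26b1 (0.0278) and Col6a1. It did not call Fst (adjusted p = 0.0616), Tectb (0.221), Mobp (0.135), Gfap (0.0527) or Ppbp (0.484) in the same test.

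Further genes of at least 50 CPM that this test called were picked out after their values were seen. Higher in apex were Vmo1, Dpp4, a peptidase of the cell surface, Nr2f1, a nuclear receptor, Myo15, a motor protein of stereocilia tips, Dkk2, Sdpr, a caveolar protein, Fcrlb and Ces1d, a carboxylesterase. Nr2f1 had 154, 158 and 158 CPM in control apex against 75.8, 76.9 and 73.4 CPM in control middle, and 162 CPM in cKO apex against 80.0 CPM in cKO middle. Its log2 fold change was 1.02 in the cKO and 1.06 in the control. Lower in apex were A2m, alpha-2-macroglobulin, a protease inhibitor, and Slc13a4, a sulfate carrier. A2m had 229.8, 230.3 and 222 CPM in control apex against 482, 483 and 483 CPM in control middle, with log2 fold changes of -1.05 in the cKO and -1.09 in the control. In Nr2f1 and A2m the apex libraries of either genotype did not overlap the middle libraries. As both were picked for a difference between apex and middle, this lack of overlap adds no support.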

How the data were processed

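Bulk RNA of 6 pools of mouse cochlea was measured in 18 libraries. The authors deposited a table with an estimated count and an FPKM value for every gene in every library; how the reads were counted, and whether by strand, is not given in the sources used here. The submitters' processing notes name STAR 2.5.2b, Cuffdiff 2.2.1 and GRCm38/mm10 without roles. Between 89.2% and 89.9% of the counts of a library were whole within 1e-06, and all were rounded. Of the 46583 genes, 46074 were found in GENCODE M21, which gave positions, and 92 symbols stood on more than 1 line and were kept apart by gene identifier.

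Counts were fitted with edgeR 4.0.16 (R 4.3.3; filterByExpr, TMM factors 0.977 to 1.03, quasi-likelihood F test, two-sided) with a term for each of the 6 pools, leaving 12 residual degrees of freedom, and dispersions were held at or above 0.0001, below which the deviance of the tool is inexact at high counts. P-values were adjusted by Benjamini-Hochberg over all 17901 genes. The coefficient of variation of the fit was 0.00988 between libraries, which is technical, and 0.116 in the fit of 6 summed pools. Errors of log2 fold changes are standard errors of the fit, and those of CPM values are SDs of 3 libraries. Intervals of count ratios are exact (Clopper-Pearson). Between libraries of the 2 compared groups, a chi-square test of the counts (genes of 20 counts or more) came to 1.21 to 1.26 per degree of freedom, so libraries were kept apart and not counted as copies. The scripts were tested on simulated data. Alternatives used DESeq2 1.42.0, limma 3.58.1 on log2(FPKM + 1) and log2(FPKM + 0.1), other scalings, filters, folds and left-out libraries.

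Named genes were the 15 with the largest change in each direction at or above 5 CPM, the 6 at or above 50 CPM, up to 4 called members per list, and members of the activin, hedgehog, bone morphogenetic protein and retinoid lists at or above 1 CPM. The 42 lists held 685 genes. Members and lists were chosen with earlier results of these data known. Promoter windows came from RefSeq tables. The values of 1 list member are not reported here.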

Additional observations from a re-analysis of the deposited data

Results flagged for a closer look

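The step from middle to apex was compared between genotypes for 38 genes by the interaction contrast of edgeR's quasi-likelihood fit, adjusted by Benjamini-Hochberg over all 17901 genes. Of all genes tested 3.54% differed by at least 2-fold, and 17 of the 38 did. Each value below is the log2 difference, the step in the cKO minus the step in the control. The genes were named for their control step, which this difference contains, and 1 pool stands behind each of the 4 groups.

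Smaller steps in the cKO on the apex side were those of Tectb at -3.86 and Adgrd1 at -1.36, and Pcp4, whose sign turned, stood at -2.89. The mucosal genes Bpifb3 and Bpifa1 had larger steps in the cKO, by 3.30 and 1.31. Bpifa1, a secreted protein of airway epithelium, averaged 309 CPM in cKO apex and 10.8 CPM in cKO middle, against 6.33 CPM in control apex and 0.543 CPM in control middle, and it stood at 111 CPM in control base. Genes of blood cells fell less in the cKO: Ppbp differed by 6.33, Klf1 by 2.003, Trim10 by 1.97, Epb4.2 by 1.82, Kel by 1.81, Slc4a1 by 1.68 and Hba-a2 by 1.53.

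Rbp4 and Hapln2 also fell less in the cKO, by 1.94 and 1.87. Larger falls in the cKO were those of Zic1 at -3.13, Slc47a1 at -2.73 and Slc6a12 at -2.36. Zic1, a transcription factor of cerebellum and meninges, averaged 0.282 CPM in cKO apex and 14.1 CPM in cKO middle, against 0.951 CPM in control apex and 5.37 CPM in control middle. Causes of these differences were not tested.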

How the results depend on the processing

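The 951 calls of the control step became 203 on log2(FPKM + 1), 265 at or above 5 CPM, 207 at a log2 fold change of at least 2 and 8207 with no fold threshold, and 293 were also called the same way in the cKO, an alternative chosen after seeing the data. The 819 calls of the cKO step became 203, 227, 248 and 9140 under the first 4 of these settings. Higher genes were 39.5% of the control calls, 50.2% at or above 5 CPM, 50.8% with no fold threshold and 26.1% at the stricter fold. The summed pools gave 247 genes with no fold threshold in place of 77. Leaving out 1 library at a time gave 947 to 965 calls in the control and 825 to 848 in the cKO, and DESeq2 gave 875 and 724. With the replicate number as a block there were 951 calls in the control and 815 in the cKO. Same-numbered libraries of apex and middle deviated together with correlations of 0.003 to 0.044, and different-numbered ones with -0.032 to 0.019. Control apex replicate 1 went best with control middle replicate 3, so the numbers give at most a weak pairing.

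Of 166 named genes, 133 kept direction and side of the threshold under all 14 settings that gave a value per gene, and no called gene changed sign. With the replicate block the change of Fst was 1.90, as without it. Signs changed for uncalled hedgehog genes near 0: Ptch1 was 0.00039 on log2(FPKM + 1) and 0.00043 on log2(FPKM + 0.1), and -0.038 to 0.021 with 1 library left out. Shh was -0.13 to 0.040 with 1 library left out. Leaving out 1 library ended 8 calls at least once: Ibsp, Gdf5, Dhrs9, Neurod1, Col22a1, Col6a1, Th and Reg3g. Genes under about 1 CPM rest on few counts, which widens the error of their fold changes.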

Other observations

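Mucosal and ciliary genes gave a few calls, beside 2.10% of all genes called higher and 3.21% called lower. Of 11 airway and mucosal secretory genes 3 were higher in control apex, Bpifa1, Bpifb3 and Reg3g, and 1 was lower, Ltf, lactoferrin, which is also on the neutrophil list. Bpifa1 had 6.51, 5.97 and 6.51 CPM in control apex against 0.591, 0.519 and 0.519 CPM in control middle, a log2 fold change of 3.53 ± 0.20. Reg3g had 12 counts over the control apex libraries and 1 over those of control middle, a ratio of middle over apex of 0.0826 (exact 95% interval 0.00193 to 0.558, counting error only), and was not called without control apex replicate 3. Tekt1, of the axoneme, was the 1 higher gene of 18 on the list of motile cilia, by 1.34 ± 0.11.

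Other lists held no called gene. None was called of 15 in the interferon list, of 15 in the core clock list, of 7 mitochondrial transcripts, of 12 for striated muscle or of 13 for endothelium and pericytes, with medians of -0.21, 0.07, -0.28, 0.06 and -0.26. Nor was any of 15 immediate early and stress genes, with a median of 0.13. Xist, made by the inactive X chromosome, had 362, 364 and 359 CPM in control apex against 294, 302 and 299 CPM in control middle, a log2 fold change of 0.28 ± 0.01 that did not reach 2-fold. The 4 Y-linked genes had log2 fold changes from -0.39 in Uty to -0.16 in Eif2s3y and were not called. In the cKO, Xist averaged 81.1 CPM in apex and 87.2 CPM in middle, against the control values above. The part of the mix of sexes in the control step, and in differences between the steps of the genotypes, was not tested.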
